A study of Mus musculus with 4 samples.

Results

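Transcript levels of 9 transcription factors that drive or repress the osteoclast or monocyte fate, namely Spi1, Nfatc1, Mitf, Tfec, Tfe3, Runx1, Klf4, Bcl6 and Prdm1, were compared between osteoclast progenitors with and without the chromatin regulator PTIP. The factors were chosen by name, and all 9 were found by Ensembl identifier among the 18276 genes of the deposited table. PTIP, encoded by Paxip1, is a subunit of the histone H3 lysine methyltransferase complexes built on MLL3 and MLL4. Poly(A) RNA came from cells of fresh mouse bone marrow that lacked B220, CD3 and Mac-1 and carried CD115, the receptor for the monocyte growth factor M-CSF. In 2 libraries (Ptip_KO) the mice were Ptip flox/flox with Mx-1Cre, and in 2 libraries (WT) they carried Mx-1Cre with wild-type Ptip. All mice were of the B6;129 background, and all carried Mx-1Cre, a recombinase driven by an interferon-inducible promoter that is active in blood cells and in other cells that respond to interferon. The series' design text calls the replicates independent, but age, the induction of Mx-1Cre and whether a library is 1 animal or a pool were not given in the sources used here. A p-value below therefore speaks of the spread among these 4 libraries, some of which may be technical.

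Osteoclasts form by fusion of cells of the monocyte lineage under M-CSF and RANK ligand. PU.1, the ETS factor encoded by Spi1, works at the base of this lineage and is needed for monocytes and osteoclasts alike. Downstream of RANK, calcium signalling through calcineurin brings NFATc1 into the nucleus, where it acts with PU.1 and with MITF, TFEC and TFE3, basic helix-loop-helix factors of the MiT family, on the genes of bone resorption. BCL6 restrains these genes, and BLIMP1, the repressor encoded by Prdm1, restrains BCL6 and other inhibitors during osteoclast differentiation. KLF4 promotes monocyte differentiation, and RUNX1, which binds DNA together with CBFB, acts in blood stem cells and myeloid progenitors.

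None of the 9 factors passed the test between Ptip_KO and WT. By limma on log2(CPM + 1), where CPM is the read count scaled to the library's effective size, 0 of 9 had a Benjamini-Hochberg adjusted p under 0.05, against 6.29% of the 12357 tested genes. At an unadjusted p under 0.05 there were 2, Runx1 and Prdm1, against 23.8% of all tested genes. The edgeR quasi-likelihood test on recovered reads called 0 of the 9 (5.34% of tested genes), and DESeq2 called 2, again Runx1 and Prdm1 (15.4%). The 2 groups did not overlap for 4 of 9 factors, against 55.1% of tested genes. Of these, Runx1 and Mitf were higher in Ptip_KO (27.7% of tested genes were) and Tfec and Prdm1 lower (27.3%). Prdm1 entered the test only because both WT libraries reached 1 CPM. Its lower direction and its lack of overlap were thereby fixed in advance, in each of these counts. The differences between genotypes were small for most factors: for Spi1, Mitf, Tfec, Tfe3 and Runx1 the 95% interval lay within 1.5-fold in either direction on the log2(CPM + 1) scale.

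The 4 libraries held between 67592972 and 77773478 reads, and 3 reads, the upper limit behind a count of 0, were worth 0.0380 to 0.0428 CPM (counting error only). Paxip1 had 5.10 and 3.73 CPM in the Ptip_KO libraries against 106 and 103 CPM in WT (limma adjusted p = 0.000383). WT replicate 2 had 298 CPM of Xist, the RNA of the inactive X chromosome, where the other 3 libraries had at most 0.0814 CPM. Ddx3y, a gene of the Y chromosome, was at 0.101 CPM in WT replicate 2 and at 69.1 to 89.6 CPM in the others. Csf1r, which encodes CD115, was at 825 and 782 CPM in the Ptip_KO libraries against 677 and 606 CPM in WT. Its log2 fold change was 0.33 (limma adjusted p = 0.149). DESeq2 called Csf1r higher in Ptip_KO (adjusted p = 0.00317), where it called 15.4% of tested genes in either direction. Itgam, which encodes Mac-1, was at 35.1 to 42.1 CPM although the sort removed Mac-1+ cells. In bulk RNA, fewer cells of a type and less RNA per cell cannot be told apart.

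**Figure D1:**
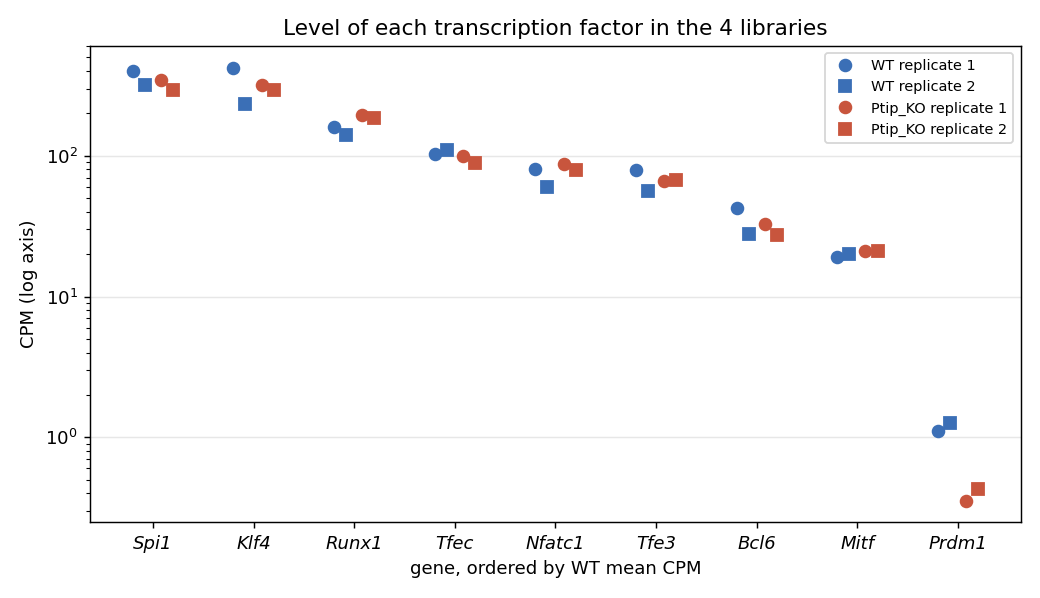
CPM (log axis) of the 9 transcription factors in each of the 4 libraries, ordered by their WT mean, with WT in blue and Ptip_KO in red, circles for replicate 1 and squares for replicate 2. Spi1 and Klf4 lie above 200 CPM in every library, Prdm1 lies near 1 CPM in WT and near 0.4 CPM in Ptip_KO, and the WT libraries differ most for Klf4.

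Spi1, the gene of PU.1, had the highest mean level per kilobase of exon among the 9 factors in both groups. It was at 345 and 296 CPM in the Ptip_KO libraries against 402 and 319 CPM in WT. The groups overlapped, since WT replicate 2 lay between the Ptip_KO libraries. The means were 320.2 ± 34.8 CPM in Ptip_KO against 360.4 ± 58.6 CPM in WT (SD, n = 2 each), a log2 fold change of −0.16 with a standard error of 0.15 (limma adjusted p = 0.551, 95% interval −0.53 to 0.20). Without WT replicate 1 the log2 fold change was 0.0015. Spi1 (ENSMUSG00000002111.8) lies on chromosome 2 at 91082390 to 91115756 (mm10).

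Nfatc1, the factor through which RANK signalling starts the osteoclast programme, was detected in these progenitors. It was at 88.1 and 79.2 CPM in the Ptip_KO libraries against 81.1 and 60.4 CPM in WT. WT replicate 2 was the low library, and WT replicate 1 lay between the Ptip_KO libraries. Means were 83.6 ± 6.28 CPM in Ptip_KO against 70.8 ± 14.7 CPM in WT (SD, n = 2 each). For the log2 fold change of 0.25 (standard error 0.15) the limma adjusted p was 0.393 (95% interval −0.13 to 0.63). Without WT replicate 1 the log2 fold change was 0.46, and without WT replicate 2 it was 0.041. With 2 WT libraries, these 2 shifts are equal and opposite for any gene.

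The MiT family members showed no difference past the threshold. Tfec, whose protein is made mainly in cells of the macrophage and osteoclast lineage, was at 99.7 and 88.9 CPM in the Ptip_KO libraries against 103 and 110.1 CPM in WT. Both Ptip_KO libraries lay below both WT libraries, by a narrow margin. Its log2 fold change of −0.18 (standard error 0.10) had a limma adjusted p of 0.339. Mitf, which is needed for osteoclasts to become multinucleate, was at 20.9 and 21.2 CPM in the Ptip_KO libraries against 19.2 and 20.1 CPM in WT. Its groups did not overlap either, with Ptip_KO higher, yet the log2 fold change was only 0.10 with a standard error of 0.10 (limma adjusted p = 0.610). Tfe3, which overlaps in function with Mitf, was at 66.5 and 67.0 CPM in the Ptip_KO libraries against 79.4 and 56.1 CPM in WT. The Ptip_KO values of Tfe3 lay together between the WT values, and its log2 fold change was 0.00070 (limma adjusted p = 0.999, 95% interval −0.41 to 0.42). Tfe3 is the X-linked member of the set, and the library that carried Xist had its lowest value; the part of Xist status in this spread was not tested. Tfec and Mitf lie on chromosome 6 at 16833373 to 16898441 and at 97807052 to 98021349, and Tfe3 on chromosome X at 7762560 to 7775202.

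Runx1 came closest to the threshold among the higher factors. It was at 194 and 185 CPM in the Ptip_KO libraries against 159 and 141 CPM in WT, so that both Ptip_KO libraries were above both WT libraries. Means were 189.8 ± 6.18 CPM in Ptip_KO against 150.0 ± 12.8 CPM in WT (SD, n = 2 each), a ratio of 1.27. The log2 fold change of 0.34 had a standard error of 0.10, a 95% interval of 0.10 to 0.58 and a limma adjusted p of 0.107. With all 4 libraries, Runx1 passed by DESeq2 (adjusted p = 0.00483) and when the values were rescaled to a common sum (limma adjusted p = 0.0424). It also passed with the replicate number as a block. Without WT replicate 1 its log2 fold change was 0.43. The adjusted p of Runx1 ran from 0.00483 to 0.467 over 15 alternatives, all with a positive log2 fold change. Runx1 lies on chromosome 16 at 92601466 to 92826149. Its exons share 106 bases with Gm26626, an antisense RNA that reached at most 0.144 CPM.

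Klf4, a zinc finger factor of inflammatory and patrolling monocytes, had the widest spread of the 9. It was at 318 and 294 CPM in the Ptip_KO libraries against 424 and 233 CPM in WT. Both Ptip_KO libraries lay between the WT libraries, which differed by 1.82-fold. The residual standard deviation of Klf4 on the log2 scale, 0.43, was above that of 96.2% of tested genes. Its log2 fold change of −0.041 (standard error 0.27) had a limma adjusted p of 0.949 and a 95% interval from −0.71 to 0.63. The comparison turned on which WT library was used: without WT replicate 2 the log2 fold change was −0.47 (limma adjusted p = 0.0331), without WT replicate 1 it was 0.39 (limma adjusted p = 0.0719), and it was 0.0095 when rescaled to a common sum, with an adjusted p of 0.0331 to 0.989 over 15 alternatives. Klf4 lies on chromosome 4 at 55527143 to 55532466.

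Bcl6, the repressor of osteoclast genes, was at 32.5 and 27.4 CPM in the Ptip_KO libraries against 42.4 and 27.8 CPM in WT. WT replicate 1 was the high library, and the groups overlapped. The log2 fold change of −0.20 had a standard error of 0.21 (limma adjusted p = 0.624, 95% interval −0.71 to 0.32). Without WT replicate 2 the log2 fold change of Bcl6 was −0.49 (limma adjusted p = 0.0434), and without WT replicate 1 it was 0.099 (limma adjusted p = 0.751), with an adjusted p of 0.0434 to 0.947 over 15 alternatives. Bcl6 lies on chromosome 16 at 23965052 to 23988852, and 21 bases of its exons overlap Gm37419 on the opposite strand.

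Prdm1 had the lowest level and the largest fitted difference of the 9 factors. It was at 0.355 and 0.428 CPM in Ptip_KO, from 27 and 30 reads, and at 1.10 and 1.26 CPM in WT, from 81 and 99 reads. The groups did not overlap, and the mean was 0.391 ± 0.0520 CPM in Ptip_KO against 1.18 ± 0.111 CPM in WT (SD, n = 2 each), a ratio of 0.333. Prdm1 entered the test only because both WT libraries reached 1 CPM, and a gene that enters in this way is bound to be lower in Ptip_KO. The log2 fold change was −0.65 (standard error 0.18), with limma adjusted p = 0.102 and a 95% interval of −1.09 to −0.20 on the log2(CPM + 1) scale, which understates changes of such low genes. On the recovered reads the log2 fold change was −1.58 by edgeR (adjusted p = 0.0678) and −1.59 by DESeq2 (adjusted p = 0.0445). With no filter the limma adjusted p was 0.0409, the lowest of 14 alternatives, and the highest was 0.457. Prdm1 lies on chromosome 10 at 44437177 to 44528501.

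**Figure D2:**
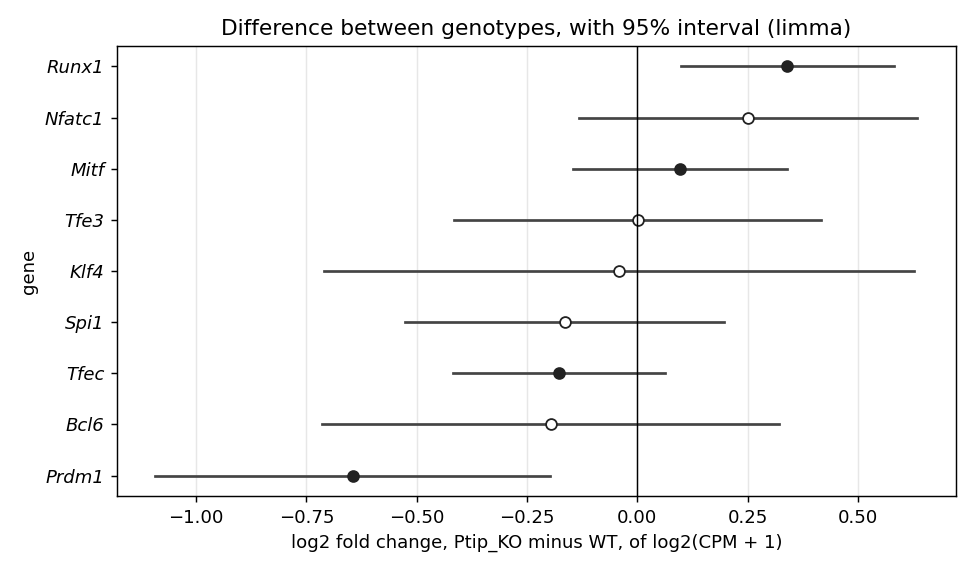
Log2 fold change of each factor (Ptip_KO minus WT, on log2(CPM + 1)) with its 95% interval from limma, filled where the groups did not overlap. The intervals of Runx1 (0.10 to 0.58) and Prdm1 (−1.09 to −0.20) leave out 0 before adjustment, and those of Klf4 and Bcl6 span more than 1 log2 unit.

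Sequence upstream of the start sites is shown for the non-overlapping members with the larger differences, Runx1, Prdm1 and Tfec, and for Bcl6, the gene that BLIMP1 restrains. Runx1 has 2 start sites in RefSeq, a distal and a proximal one, whose transcripts a count per gene adds together. The stretches are read 5′ to 3′ toward the start site from RefSeq's table on GRCm38.p6, the assembly of mm10, and stop before the first base that GENCODE M21 places in an exon of the gene. Capitals mark matches to the RUNX core TGTGGT, the PU.1 core GAGGAA or the E-box CACGTG, on either strand.
Runx1 distal (chr16:92826150-92826324, minus strand): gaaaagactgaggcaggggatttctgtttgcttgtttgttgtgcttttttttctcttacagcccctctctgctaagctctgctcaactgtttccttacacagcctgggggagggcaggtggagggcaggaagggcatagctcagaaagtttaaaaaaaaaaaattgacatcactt
Runx1 proximal (chr16:92697330-92697579, minus strand): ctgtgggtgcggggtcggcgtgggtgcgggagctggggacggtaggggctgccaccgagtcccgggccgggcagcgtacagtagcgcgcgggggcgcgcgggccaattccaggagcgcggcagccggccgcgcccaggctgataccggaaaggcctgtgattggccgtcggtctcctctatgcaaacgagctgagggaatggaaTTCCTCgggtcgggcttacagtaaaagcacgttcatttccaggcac
Prdm1 (chr10:44458749-44458998, minus strand): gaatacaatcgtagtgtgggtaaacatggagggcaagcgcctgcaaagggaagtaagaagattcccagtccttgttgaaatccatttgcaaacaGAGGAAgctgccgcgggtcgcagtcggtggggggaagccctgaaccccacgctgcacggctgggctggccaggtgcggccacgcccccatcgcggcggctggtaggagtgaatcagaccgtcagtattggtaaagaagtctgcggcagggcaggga
Tfec (chr6:16898442-16898691, minus strand): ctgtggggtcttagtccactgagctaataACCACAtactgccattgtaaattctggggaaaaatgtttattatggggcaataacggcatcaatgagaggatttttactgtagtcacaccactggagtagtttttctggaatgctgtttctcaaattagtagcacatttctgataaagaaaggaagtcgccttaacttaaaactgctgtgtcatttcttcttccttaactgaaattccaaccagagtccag
Bcl6 (chr16:23988853-23989102, minus strand): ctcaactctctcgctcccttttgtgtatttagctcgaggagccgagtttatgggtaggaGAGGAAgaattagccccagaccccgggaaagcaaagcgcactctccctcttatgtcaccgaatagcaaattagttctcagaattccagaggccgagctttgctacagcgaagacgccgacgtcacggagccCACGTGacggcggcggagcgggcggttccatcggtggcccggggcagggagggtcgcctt

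The search took 12 such windows of the same length for 7 of the factors, each reaching from 250 bases before to 50 after a start. Nfatc1 was left out of this search, and no window was at hand for Spi1. The proximal Runx1 stretch held a PU.1 core 46 bases before the start, on the strand opposite to the one printed, and the Prdm1 stretch held 1 beginning 156 bases before it. In Tfec a RUNX core, also on the opposite strand, lay 221 bases before the start. The first Bcl6 start had a PU.1 core at 191 bases and an E-box at 60 bases before it. The distal Runx1 window held an E-box 71 bases before the RefSeq start and 2 RUNX cores just after it, beyond the stretch shown. Klf4 had an E-box 182 bases before its start, the first Mitf window a RUNX core 81 bases before it, and the first Tfe3 window a RUNX core across the RefSeq start. In all, 4 of the 12 windows held a RUNX core, 4 a PU.1 core and 3 an E-box. Over all 32851 promoter windows, 16.8% held the RUNX core, 28.3% the PU.1 core and 7.15% the E-box. The M-box core CATGTG, another MiT family sequence, was in 0 of the 12 windows and in 14.2% of all. A match shows these letters only, and binding was not measured here.

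Between genes, levels were set side by side per kilobase of annotated exon. In WT the order was Spi1 (134 ± 21.7 CPM per kilobase; SD, n = 2), Klf4 (108 ± 44.1), Tfec (19.1 ± 0.881), Runx1 (12.5 ± 1.07), Nfatc1 (9.47 ± 1.97), Tfe3 (7.32 ± 1.78), Bcl6 (5.24 ± 1.54), Mitf (3.17 ± 0.101) and Prdm1 (0.211 ± 0.0198). Spi1 and Klf4 overlapped between libraries, as did Nfatc1 with Tfe3 and Tfe3 with Bcl6, and the other neighbours in this order were apart. The order in Ptip_KO was the same, with Tfec (16.9 ± 1.37) and Runx1 (15.8 ± 0.514) overlapping there. Per kilobase of the longest coding transcript, Tfe3 stood above Nfatc1 in both groups. Per kilobase of annotated exon, Spi1 stood above 97.0% of all tested genes in WT, Klf4 above 96.3%, Mitf above 31.5% and Prdm1 above 1.90%.

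Within families, the share of each member per exon kilobase was set by different genes. Of the RUNX total, Runx1 made up 73.5% and 75.8% in Ptip_KO and 59.2% in each WT library. Runx3, a factor of dendritic cells and lymphocytes, made up 5.90% and 7.13% in Ptip_KO and 20.8% and 17.2% in WT. Runx2, known from bone-forming cells, was at 40.1 and 30.6 CPM in the Ptip_KO libraries against 39.6 and 41.3 CPM in WT. In the MiT family, Tfec was the largest part in every library, at 42.5% to 51.7%, followed by Tfeb, a regulator of lysosome genes, at 23.9% to 30.6%. In the NFAT family, Nfatc1 made up 52.6% and 52.0% in Ptip_KO and 48.0% and 45.7% in WT, with Nfatc3 as the other large part. Per kilobase of the longest coding transcript, Nfatc3 was above Nfatc1 in both WT libraries, so the order of these relatives depended on the length used. Among the close relatives of PU.1, Spi1 made up 96.6% to 97.5%. The families were grouped after the values were seen, and the differences in share were not tested.

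**Figure D3:**
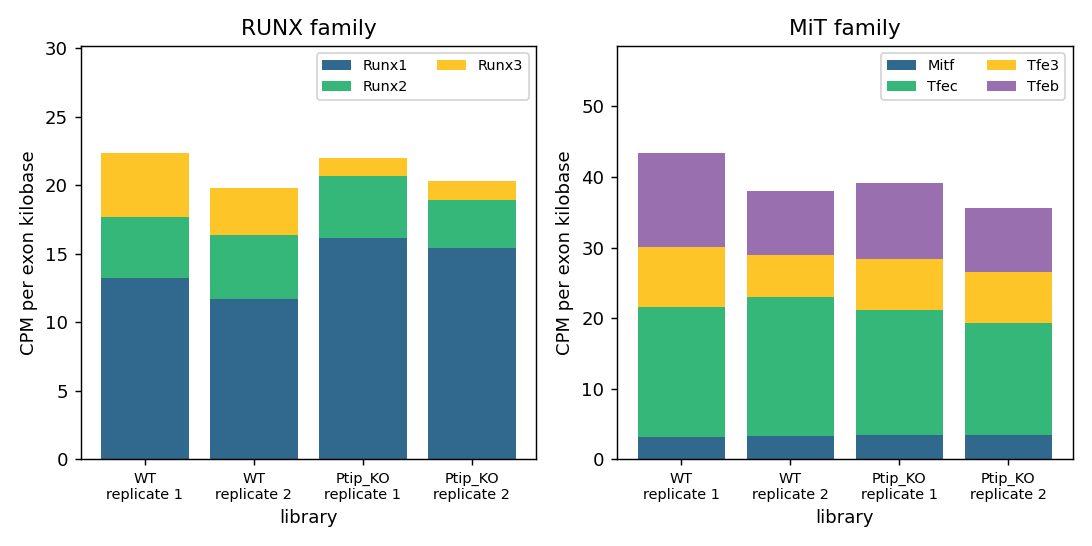
CPM per exon kilobase of the RUNX family (left) and the MiT family (right), stacked by gene, in each of the 4 libraries. The Runx3 part is smaller in the Ptip_KO libraries (1.30 and 1.45) than in WT (4.64 and 3.42), while Tfec is the largest MiT part in all 4 libraries.

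Around the 9 factors, 8 other regulators or targets of the same fates were called by limma. Of 89 tested genes in 6 lists of related genes, 2 rose and 6 fell in Ptip_KO by limma, against 2.43% and 3.86% of all tested genes, or 6.29% in either direction. In lists of this size these counts are near the shares over all genes, and no test of the lists against other genes was made. Maf, among those that fell, passed the filter only through WT and could only be called lower. Among factors that promote osteoclasts, 1 of 17 tested members (of 18) rose and 0 fell, with a median log2 fold change of −0.036 against 0.0032 over all tested genes. The riser was Mef2c, a MADS-box factor, at 166 and 159 CPM in the Ptip_KO libraries against 100.1 and 116 CPM in WT (log2 fold change 0.59, standard error 0.10, limma adjusted p = 0.0347). Mef2c lost the call by edgeR (adjusted p = 0.0503), when rescaled to a common sum (limma adjusted p = 0.0536) and without either Ptip_KO library (0.137 and 0.1004). Myc, at 83.6 and 86.5 CPM in the Ptip_KO libraries against 109.6 and 122 CPM in WT, did not pass (limma adjusted p = 0.0546). The adipocyte and osteoclast factor Pparg, which like Prdm1 passed the filter only through WT, had a limma adjusted p of 0.0626, and Jdp2, an AP-1 family member, 0.254.

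Factors that restrain osteoclasts had a call in each direction. Of 9 tested members (of 11), Id1 rose and Id2 fell, and the median was −0.15. Both encode inhibitors of basic helix-loop-helix factors. Id2 fell from 33.7 and 24.9 CPM in WT to 7.57 and 7.92 CPM in Ptip_KO (log2 fold change −1.78, standard error 0.16, limma adjusted p = 0.00673), and passed in all 15 alternatives. Id1 rose from 20.0 and 15.8 CPM in WT to 34.0 and 28.6 CPM in Ptip_KO (log2 fold change 0.78, limma adjusted p = 0.0452), and did not pass without Ptip_KO replicate 1 (limma adjusted p = 0.148). Foxo1 and Tal1 did not pass, with limma adjusted p of 0.113 and 0.301.

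Lineage factors of monocytes and myeloid progenitors fell where they were called. Of 29 tested members (of 33), 0 rose and 4 fell, with a median of −0.092. Cebpb, the C/EBP factor of patrolling monocytes and activated macrophages, fell from 198 and 194 CPM in WT to 88.4 and 103 CPM in Ptip_KO (limma adjusted p = 0.00933). Irf4, a factor of dendritic cells and lymphocytes, fell from 19.8 and 12.8 CPM to 4.44 and 4.25 CPM (limma adjusted p = 0.0160). Runx3 fell from 23.2 and 17.1 CPM to 6.49 and 7.25 CPM (limma adjusted p = 0.0143). Each of these 3 passed in all 15 alternatives, and in each the libraries of a group lay apart from those of the other. The macrophage factor Maf fell from 2.56 and 2.60 CPM to 0.736 and 0.742 CPM (limma adjusted p = 0.0254), but passed the filter only through WT and lost the call without either Ptip_KO library (0.102 and 0.106). Gfi1b and Gata1, factors of red cell and platelet precursors, were lower in Ptip_KO but missed the threshold at limma adjusted p of 0.0547 and 0.0872. The stem cell factor Meis1 was higher in Ptip_KO, at a log2 fold change of 0.55, and also missed it (limma adjusted p = 0.151).

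**Figure D4:**
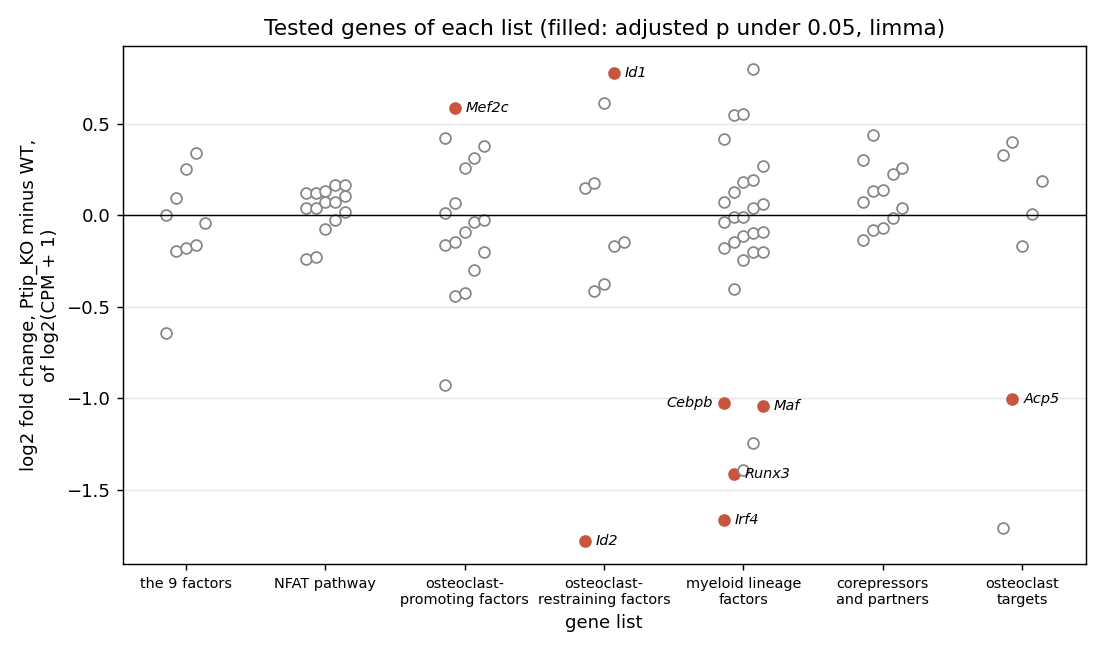
Log2 fold change (Ptip_KO minus WT, on log2(CPM + 1)) of each tested gene by list, filled and named where the limma adjusted p was under 0.05. None of the 9 factors is filled, and the 8 filled genes are Mef2c and Id1 above 0 and Id2, Irf4, Runx3, Maf, Cebpb and Acp5 below 0.

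On the route from RANK to NFATc1, 0 of 15 tested members (of 16) passed by limma (6.29% of all tested genes), edgeR (5.34%) or DESeq2 (15.4%), and 0 had an unadjusted limma p under 0.05 (23.8%). In a list of this size, 0 calls by limma or edgeR is near the share over all genes. The median was 0.070. The smallest p belonged to Tec, a kinase below immune receptors (log2 fold change −0.23, limma adjusted p = 0.262), Ppp3ca, a catalytic subunit of calcineurin (0.17, adjusted p = 0.365), and Plcg2, the phospholipase that starts the calcium signal (−0.24, adjusted p = 0.376). For Nfatc2 the log2 fold change was 0.67 without WT replicate 1, but 0.12 with all libraries (limma adjusted p = 0.881). Its Ptip_KO libraries, at 11.2 and 8.79 CPM, lay between the WT libraries, at 13.7 and 5.88 CPM. Among corepressors and partners of BCL6, BLIMP1 and RUNX1, 0 of 12 passed by limma or edgeR. An unadjusted limma p under 0.05 was found for 3 of 12 (23.8% of all tested genes), and DESeq2 called 2 of 12, Hdac7 and Tle3, both higher (15.4% of all). These shares are near those of all tested genes. The median was 0.10. Without WT replicate 1, Hdac7 was called higher (limma adjusted p = 0.0170). The deacetylase Hdac7 was at 54.7 and 56.7 CPM in the Ptip_KO libraries against 43.6 and 38.3 CPM in WT (limma adjusted p = 0.0649), and the corepressors Tle3 and Bcor had limma adjusted p of 0.138 and 0.198. Cbfb, the partner of RUNX1, was at 239 and 214 CPM in the Ptip_KO libraries against 249 and 209 CPM in WT.

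Of the osteoclast genes that NFATc1, PU.1 and MITF drive, 7 of the 13 listed were tested. By limma 1 fell and 0 rose, with a median log2 fold change of 0.0068. Acp5, the tartrate-resistant acid phosphatase, fell from 8.90 and 10.1 CPM in WT to 3.86 and 4.64 CPM in Ptip_KO (log2 fold change −1.002, limma adjusted p = 0.0228). Its call was lost without Ptip_KO replicate 1 (0.0721) and when rescaled to a common sum (0.0505). Csf1r, Mmp9 and Clcn7 had the next smallest p, with limma adjusted p of 0.149, 0.169 and 0.346. Mmp9, a gelatinase, was at 135 and 34.8 CPM in the Ptip_KO libraries against 179 and 287 CPM in WT. The protease gene Ctsk, Ocstamp and Atp6v0d2 reached at most 0.393 CPM and were under the filter, and Oscar, Dcstamp and Calcr were not analysed here.

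Some markers of other blood cells and of progenitors were also lower in Ptip_KO beside these genes. Over all tested genes, limma called 3.86% lower and 2.43% higher, and 23.8% had an unadjusted limma p under 0.05. Of macrophage markers, 6 of 8 tested were called lower and 0 higher, and the list summed to 187 to 218 CPM in Ptip_KO and 220.5 to 353 CPM in WT. Of the 6, the complement genes C1qa, C1qb and C1qc were at 0.143 to 0.407 CPM in Ptip_KO and 3.03 to 3.79 CPM in WT, so these 3 passed the filter only through WT and could only be called lower. The other 3 were Adgre1, Mrc1 and Cd163. Cd68, which made up 121 to 229 CPM of the list's sums, was not called (log2 fold change 0.12, limma adjusted p = 0.846). Vcam1 was not called either (log2 fold change −0.78, limma adjusted p = 0.387). Adgre1, which encodes a macrophage surface antigen, fell from 90.5 and 51.7 CPM in WT to 8.67 and 6.79 CPM in Ptip_KO (limma adjusted p = 0.00658). Dendritic cell markers fell in 5 of 7 tested, from sums of 249 to 341 CPM in WT to 119 to 123 CPM in Ptip_KO. Red cell markers fell in 8 of 11, from 2220 to 4949 CPM to 901 to 1196 CPM. Neutrophil markers had 0 calls of 11, but 9 of 11 had a negative log2 fold change, with a median of −0.90, and 5 had an unadjusted limma p under 0.05. S100a8 and S100a9 had limma adjusted p of 0.0521 and 0.0509, at log2 fold changes of −1.54 and −1.71. The neutrophil sums overlapped, at 10862 to 11661 CPM in Ptip_KO and 9784 to 14398 CPM in WT, and Mpo alone made up 5885 to 8481 CPM of them. Of 10 markers of CD115+ progenitors and of the sort, 2 fell, 0 rose and 5 had an unadjusted limma p under 0.05. Kit, a receptor of early progenitors, fell from 49.5 and 73.1 CPM in WT to 14.4 and 16.1 CPM in Ptip_KO (log2 fold change −1.91, limma adjusted p = 0.00908). Flt3, which is also in the dendritic cell list, fell from 67.6 and 77.8 CPM to 42.8 and 34.5 CPM (limma adjusted p = 0.0244). Of B cell markers 1 of 2 tested, Cd79b, rose, and the sums were 52.0 to 56.1 CPM in Ptip_KO and 29.5 to 47.3 CPM in WT. T and NK cell markers (0 of 2 called) summed to 35.1 to 70.1 CPM over the 4 libraries, of which Nkg7 alone made up 33.5 to 66.4 CPM. Megakaryocyte markers (0 of 2 called) summed to 7.36 to 27.2 CPM. Cd3e, at 0 reads in 1 library, was the only marker in these lists listed at 0. Prdm1, Id2, Irf4, Runx3 and Maf are also used by macrophages, dendritic cells or lymphocytes, and the part of such cells, or of the progenitors with Kit and Flt3, in their values was not tested.

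Variation between the WT libraries was large beside the genotype difference for several factors. In 5 of 9, Nfatc1, Spi1, Tfe3, Bcl6 and Klf4, the WT libraries differed by more than the group means did on the log2 scale, as in 46.8% of tested genes. WT replicate 1 was above WT replicate 2 for 6 of 9, against 57.4% of tested genes, by between 1.13-fold for Runx1 and 1.82-fold for Klf4. Leaving out WT replicate 1 gave calls for Nfatc1 and Runx1, both higher in Ptip_KO. Leaving out WT replicate 2 gave calls for Bcl6 and Klf4, both lower in Ptip_KO. These fits called 12.1% and 13.1% of tested genes, and no factor was called in both. Without WT replicate 2, the library with Xist, the log2 fold change was 0.25 for Runx1, −0.59 for Prdm1, 0.13 for Mitf, −0.13 for Tfec, −0.33 for Spi1 and −0.25 for Tfe3, with limma adjusted p from 0.149 to 0.586. Leaving out Ptip_KO replicate 1 or 2 called 0 of 9 (3.66% and 3.85% of tested genes). Ptip_KO replicate 1 was above Ptip_KO replicate 2 for 6 of 9 factors (58.3% of tested genes), and 5 of 9 were higher in replicate 1 of both groups (42.3%).

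Of the other settings, 2 called 1 factor each. These were Prdm1 with no filter (4.49% of tested genes called) and Runx1 after rescaling to a common sum (4.74%). A pseudocount of 0.25 or 5 called 0 of 9 (6.3% and 5.82% of tested genes), as did a filter of 5 CPM (6.4%), a robust variance prior (7.08%), median-of-ratios factors (6.43%) and edgeR with the authors' library sizes (6.11%).

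**Figure D5:**
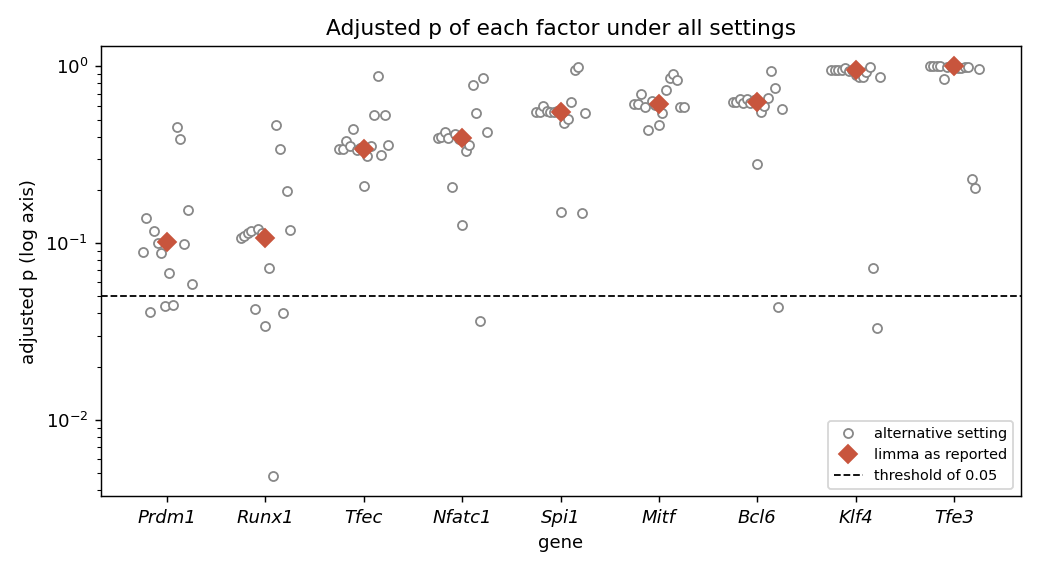
Adjusted p (log axis) of each factor under limma as reported (diamonds) and under the alternative settings (open circles), with the threshold of 0.05 as a dashed line. Only Prdm1, Runx1, Nfatc1, Bcl6 and Klf4 have a circle under the line, and no diamond is under it.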

How the data were processed

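Stranded mRNA libraries were made from sorted cells, per the labels' protocols. According to the submitters' processing notes, TopHat2 2.0.10, HTSeq 0.6.0, edgeR 3.8.6 and build mm10 were used; their roles and whether strand was counted are not given in the sources used here. The table deposited by the authors holds 1 normalized signal for each gene and library, edgeR CPM on the effective library size by the table's name. Its column headers number WT replicate 2 as 3. Dividing by the smallest value of a library gave whole reads for 100% of values (within 0.01 read).

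The fit took the 12357 genes with at least 1 CPM in 2 libraries. It used limma 3.58.1 (R 4.3.3) on log2(CPM + 1), 2-sided, with a trended variance prior and genotype alone in the model. Adjustment was by Benjamini-Hochberg over all of these genes, at 0.05. The script was tested on simulated data. Counted reads were also tested with edgeR 4.0.16 (660 genes called) and DESeq2 1.42.0 (1906), where limma called 777. Other pseudocounts, filters, scalings, a robust prior and a replicate block were tried, and each library was left out in turn. The alternative of edgeR on the library sizes of the authors was chosen after seeing the data.

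The factors and lists were chosen with earlier results of these data known, so no list was tested as a set. Named genes are the 9 factors, Paxip1, each list's called genes and its 3 next smallest p; families, Fos, Jun, Egr1, Klf2, Cbfb and the marker genes were named after their values were seen, as was Nfatc2. Some genes that meet these rules are not reported here. Genes most like a called factor were to be named, but no factor was called. Positions and exon lengths are from GENCODE M21 on GRCm38; 16848 of 18276 identifiers had the same version there, those of Runx1 and Nfatc1 another. A BLAST 2.17.0 search (95% identity, 50% of the length, 200 bases) found no near-identical copy of a factor.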

Additional observations from a re-analysis of the deposited data

How the results depend on the processing

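With 2 libraries a group, single libraries set several values. Leaving out each library in turn gave 452 to 1620 called genes overall (777 with all 4), 0 to 2 of the 9 factors and 7 to 22 genes in the 6 lists (8 with all 4). DESeq2 called 1906 genes, 2 factors and 16 list genes. Of the factors, 1 passed with no filter (Prdm1) and 1 when rescaled to a common sum (Runx1). That rescaling moved the median of all genes to 0.050.

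The direction turned for Tfe3 with a pseudocount of 5 (−0.00046), median-of-ratios factors (−0.0045), edgeR (−0.0097), edgeR with the authors' library sizes (−0.021) and DESeq2 (−0.015), and for Klf4 when rescaled to a common sum (0.0095). Over the fits that leave out 1 library, the log2 fold change ran from −0.25 to 0.25 for Tfe3, from −0.47 to 0.39 for Klf4, from −0.33 to 0.0015 for Spi1 and from −0.49 to 0.099 for Bcl6. Nfatc1, Mitf, Tfec, Runx1 and Prdm1 kept their direction in every alternative that tested them; the 5 CPM filter left Prdm1 out. Apart from the left-out library, the cause of these changes was not tested.

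With the replicate number as a block, 1721 genes, 2 factors (Runx1, limma adjusted p = 0.0338, and Prdm1, 0.0441) and 13 list genes were called. No label says that equal numbers pair samples, and the table's header numbers WT replicate 2 as 3. Across genes, same-numbered libraries' deviations from their group means correlated at r = 0.332, from 2 pairs. Depth limits Prdm1 most, at 27 to 99 reads.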

Other observations

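Immediate early genes varied between libraries of a group. Jun, a partner of FOS in the AP-1 factor, was at 579.5 CPM in Ptip_KO replicate 2 and at 272 to 332 CPM in the other 3 libraries. Egr1 was at 20.1 CPM in that library and at 5.87 to 8.22 CPM elsewhere. Fos was at 614 and 997 CPM in the Ptip_KO libraries against 1061 and 659 CPM in WT. Klf2, a relative of Klf4, was at 86.9 and 122 CPM in the Ptip_KO libraries against 118 and 69.5 CPM in WT. As with Klf4, its WT libraries differed by more than the group means did.

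Ratios of CPM within a library do not depend on the scaling between libraries. They were chosen after the values were seen and were not tested. Runx1 relative to its partner Cbfb was 0.812 and 0.868 in Ptip_KO and 0.637 and 0.674 in WT. Bcl6 relative to Prdm1 was 91.7 and 64.0 in Ptip_KO and 38.6 and 22.2 in WT. The groups of Bcl6 itself overlapped, so that ratio restates the difference of Prdm1, which passed the filter only through WT. Nfatc1 relative to Nfatc3 was 0.855 and 0.833 in Ptip_KO and 0.719 and 0.624 in WT, so its groups did not overlap although those of Nfatc1 itself did. Spi1 relative to Cebpa, a balance known from granulocyte and monocyte fate, was 1.48 and 1.28 in Ptip_KO and 1.71 and 1.05 in WT, where the groups overlapped.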
